A study of Arabidopsis thaliana with 10 samples.

Results

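miR395 is a small family of plant microRNAs that pairs with messenger RNAs of sulfate uptake and activation, and 10 rows of the deposited tables were followed here: the 6 small RNA entries of miR395a to miR395f (MIMAT0000938 to MIMAT0000943), and the RNA rows of APS1 (AT3G22890), APS3 (AT4G14680), APS4 (AT5G43780) and SULTR2;1 (AT5G10180). They were taken by identifier from 428 small RNA entries and 73194 RNA features. The set was chosen by raw counts in fve-8 and WT that were already known, so the levels of these 10 rows are given as a description with no test. The material was whole seedlings of Arabidopsis thaliana (ecotype Ler) aged 5 days, grown on MS medium with no treatment, of the homozygous mutant fve-8 (-/-) and of E5-4, which the series gives as its WT. FVE encodes a WD40-repeat protein best known from the autonomous flowering pathway. RNA was sequenced in 3 libraries per genotype and small RNA of 19 to 24 nt in 2 per genotype. The labels do not say that replicates came from separate cultures, so spread and p-values describe these libraries and may be technical. FVE itself (AT2G19520) was read at 8.67 to 9.97 CPM (counts scaled to library size) in the WT RNA libraries and at 5.40 to 6.61 CPM in fve-8. Plastid genes took 44.9% to 45.9% of RNA counts in WT and 33.0% to 38.5% in fve-8, and the fve-8 RNA libraries differed more among themselves (chi-square per degree of freedom 17.3 to 43.6) than the WT ones (2.68 to 4.10).

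In Arabidopsis, miR395 accumulates when sulfate is scarce, in part through the transcription factor SLIM1, and guides cleavage of transcripts of ATP sulfurylases and of the vascular sulfate transporter SULTR2;1. ATP sulfurylase joins sulfate to ATP to make adenosine 5'-phosphosulfate, the activated form from which the plant either reduces sulfur to sulfide for cysteine, through APS reductase and sulfite reductase, or makes the donor for sulfated compounds, through APS kinase. APS1, APS3 and APS4 are plastid ATP sulfurylases that carry a miR395 site, whereas APS2, the remaining isoform, is not known as a target. SULTR2;1 moves sulfate within the vascular tissue of roots and leaves.

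miR395 was higher in both fve-8 libraries than in both WT libraries. The entry of miR395a held 50 and 46 reads in WT replicates 1 and 2, and 293 and 238 reads in fve-8 replicates 1 and 2. The genotypes did not overlap even before any scaling, and the fve-8 count was 4.76 to 6.37 times the WT count in every pairing of libraries. How many of the other entries separate in this way was not counted. Counts over all entries were lower in fve-8, at 376797 and 424637 against 1280675 and 967163 in WT, so scaling widened the gap. These totals cover the miRNA entries only, and the number of reads sequenced was not used here. Fewer reads sequenced and fewer reads on these entries thus cannot be told apart. The scaled values describe miR395 within these counts.

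Scaled to effective library size with the TMM method (trimmed mean of M-values), miR395a stood at 39.4 and 46.5 CPM in WT and at 785 and 563 CPM in fve-8. The mean went from 43.0 ± 5.03 to 674 ± 157 CPM (SD, n = 2), a ratio of 15.7 and a log2 fold change of 3.97 ± 0.33 (SE). As a share of all counts in the table, miR395a took 0.00390% (95% exact Clopper-Pearson interval 0.00290% to 0.00515%) and 0.00476% (0.00348% to 0.00634%) in the WT libraries. In fve-8 it took 0.0778% (0.0691% to 0.0872%) and 0.0560% (0.0492% to 0.0636%). These intervals cover counting error only, and the 2 fve-8 intervals do not meet, so those replicates differed from each other by more than counting error. The log2 fold change lay between 3.72, without fve-8 replicate 1, and 4.14, without fve-8 replicate 2.

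**Figure D1:**
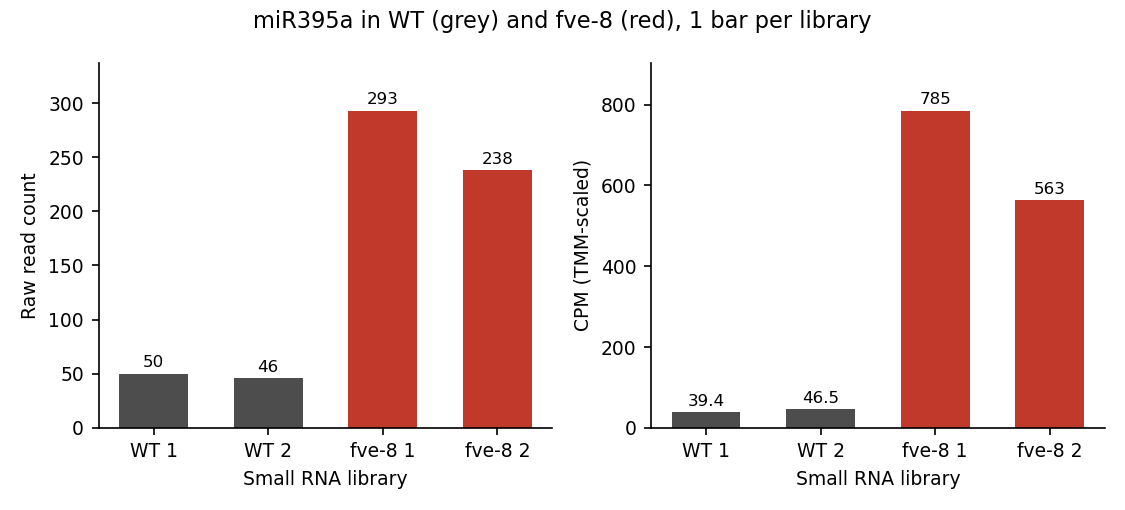
Reads of miR395a in each small RNA library, as raw counts (left) and as TMM-scaled CPM (right), 1 bar per library with WT in grey and fve-8 in red. The WT libraries hold 50 and 46 reads and the fve-8 libraries 293 and 238, or 39.4 and 46.5 against 785 and 563 CPM.

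The 6 entries carried almost the same number. miR395a, miR395d and miR395e had equal counts in all 4 libraries, and miR395b, miR395c and miR395f differed from them by a single read, with 49 in place of 50 in WT replicate 1. The family therefore amounts to 1 measurement listed 6 times, and the sources used here do not state how reads that match several entries were counted. The counts cannot say which precursor gave the reads, nor whether some members changed and others did not. Sharing of this kind was not limited to miR395: 64 of the 391 entries with a count shared all 4 values with at least 1 other entry, in 22 sets. Entries with few reads can match by coincidence. Of the 271 entries that passed the filter on low counts, 31 shared all 4 values, the 6 of miR395 included.

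In the table as a whole, miR395 moved from the middle of the abundance order toward its upper part. miR395a ranked 210th and 202nd of 428 entries in the WT libraries, where 371 and 375 entries had a count. It ranked 92nd and 106th in fve-8, where 342 and 339 had one. Its log2 fold change of 3.97 lay far above the median of 0.09 over the 271 entries that passed the filter on low counts, and beyond their 95th percentile of 1.80. The 6 entries held the 6 highest log2 fold changes, from 1 set of reads. The 271 entries include these 6. The family was chosen with these counts known, so its place among the entries is description only. Kept as 1 entry, in a table with 1 entry per set of equal counts, miR395 ranked 1st of 251, and without WT replicate 1 miR395a ranked 2nd of 259.

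Other small RNA entries reached log2 fold changes of up to 3.49. With edgeR's quasi-likelihood test, 27 of 271 entries, or 9.96%, passed an adjusted p under 0.05. Of these 21 were higher in fve-8 (7.75% of those tested) and 6 lower (2.21%). The 6 miR395 entries are among the 21, a count that their choice fixed and that rests on 1 set of reads. The remaining 15 rose by 0.95 to 3.49 on the log2 scale. The entry most like miR395a, by the root mean square difference of centred log2 CPM over the 4 libraries, was MIMAT0022400 (0.28 on the log2 scale), followed by MIMAT0004265 (0.33) and MIMAT0032128 (0.34), out of 265 compared. MIMAT0022400 held 28 and 34 reads in WT against 134 and 115 in the mutant, with log2 fold change 3.49 ± 0.41 (edgeR adjusted p = 5.2e-05, higher in 2 of 2 fve-8 libraries). The reference table does not pair these identifiers with names, and the entries of miR397, miR398, miR399 and miR827 could not be set beside miR395 for the same reason.

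**Figure D2:**
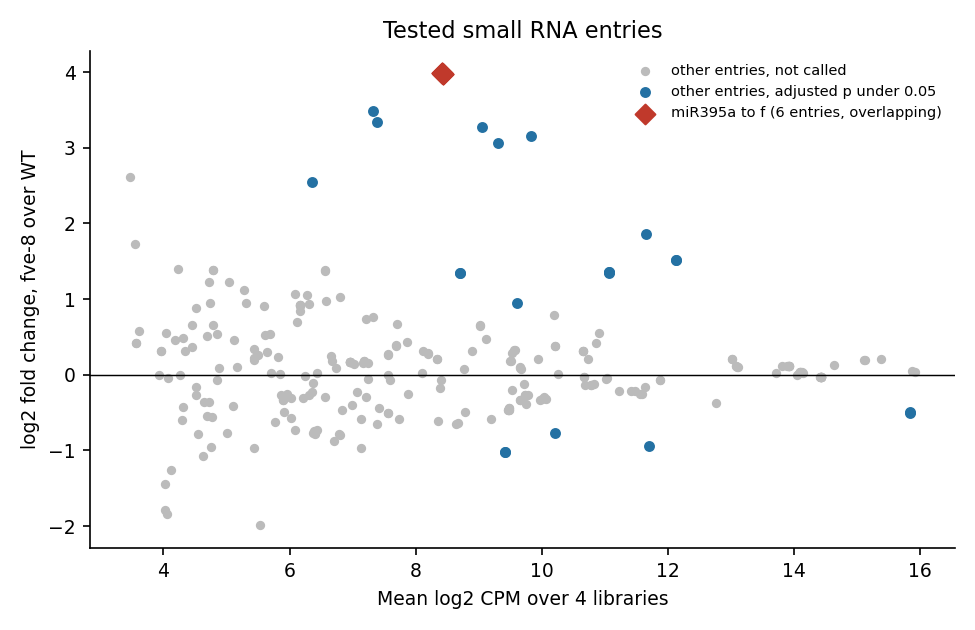
Log2 fold change of fve-8 over WT against mean log2 CPM for the 271 small RNA entries tested, with 1 point per entry. The 6 miR395 entries (red, drawn on top of each other) lie at 3.97 to 3.98, above the highest of the other entries at 3.49.

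The precursor loci themselves left no reads in the RNA libraries. MIR395a (AT1G26973), MIR395b (AT1G26975), MIR395c (AT1G26985), MIR395d (AT1G69792), MIR395e (AT1G69795) and MIR395f (AT1G69797) each had 0 counts in all 6 libraries. Such a count is compatible with as many as 3 reads, which is 0.127 to 0.206 CPM depending on the library. Precursor levels could thus not be read in either genotype. Whether depth, library preparation or the counting of reads gave the zeros was not tested. MIR395a to MIR395c and MIR395d to MIR395f form 2 groups of neighbouring loci on chromosome 1 in the RefSeq table of TAIR10.1. The protein-coding genes that flank these groups were not called, and AT1G26976, inside the first group, had 0 counts in all 6 libraries. AT1G26970 and AT1G27000, beside the first group, had log2 fold changes of -0.29 ± 0.44 (SE, n = 3, edgeR adjusted p = 0.719) and 0.06 ± 0.10 (edgeR adjusted p = 0.728). AT1G69790 and AT1G69800, beside the second, had -0.63 ± 0.23 (edgeR adjusted p = 0.100) and -0.44 ± 0.19 (edgeR adjusted p = 0.161).

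The 4 targets did not move together. APS3 was higher in every fve-8 library than in any WT library, APS4 was lower in every fve-8 library, and APS1 and SULTR2;1 overlapped between genotypes. The share of all tested features whose genotypes separate in this way was not counted, so here and below separation is description only. None of the 4 targets differed by more than 1.33-fold in mean TMM-scaled CPM, against the 15.7-fold difference of the miRNA in separate small RNA libraries. With library totals the log2 fold changes were 0.57 for APS1, 0.75 for APS3, 0.00 for APS4 and 0.34 for SULTR2;1. The median feature stood at 0.33 on that scale. In the RNA fit 2280 of 19543 features (11.7%) passed an adjusted p under 0.05, 6.60% higher and 5.07% lower. The 4 targets were part of this fit, but their calls are not used, since the genes were chosen with this contrast known.

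APS1 had 1663, 1804 and 1679 counts in WT replicates 1 to 3 and 2110, 3534 and 2204 in fve-8. Scaled, these were 107, 116 and 115 CPM in WT and 112, 150 and 135 CPM in fve-8. Replicates 2 and 3 of fve-8 lay above all WT libraries, while fve-8 replicate 1 lay inside the WT range. The mean went from 113 ± 4.99 to 132 ± 19.2 CPM (SD, n = 3), a log2 fold change of 0.23 ± 0.12 (SE), which was 0.13 without fve-8 replicate 2 and 0.34 without fve-8 replicate 1.

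APS3 was read at 4.50, 5.20 and 5.08 CPM in WT and at 5.29, 7.19 and 7.18 CPM in fve-8, from 70 to 81 and from 100 to 170 counts. All fve-8 libraries were above all WT libraries, by a narrow margin for fve-8 replicate 1. The log2 fold change was 0.41 ± 0.17 (SE), with means of 4.93 ± 0.374 and 6.55 ± 1.1 CPM (SD, n = 3). Of all tested features, 24.4% had a larger change in either direction.

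APS4 stood at 56.6, 55.7 and 58.7 CPM in WT and at 49.9, 41.7 and 43.9 CPM in fve-8. It was the one target below WT in every fve-8 library, again with fve-8 replicate 1 nearest to WT. The means were 57.0 ± 1.5 and 45.2 ± 4.24 CPM (SD, n = 3), a log2 fold change of -0.34 ± 0.10 (SE), and 32.4% of tested features had a larger change in either direction. The lower level depends on scaling: with library totals alone the log2 fold change of APS4 was 0.00, where that of the median feature was 0.33, so that APS4 stayed 0.33 below the median feature under both scalings (-0.33).

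SULTR2;1 was read at 56.0, 53.4 and 55.9 CPM in WT and at 53.9, 61.1 and 49.1 CPM in fve-8. The fve-8 libraries spread to both sides of the WT values, with replicate 2 highest and replicate 3 lowest. The means were 55.1 ± 1.47 and 54.7 ± 6.0 CPM (SD, n = 3), a log2 fold change of -0.01 ± 0.10 (SE). Its sign changed with single libraries, from -0.10 without fve-8 replicate 2 to 0.08 without fve-8 replicate 3. With library totals its value was 0.34, at the median feature's 0.33. The authors' deposited table gives log2 fold changes of 0.24 for APS1, 0.42 for APS3, -0.33 for APS4 and 0.00 for SULTR2;1, and 3.96 for miR395a.

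**Figure D3:**
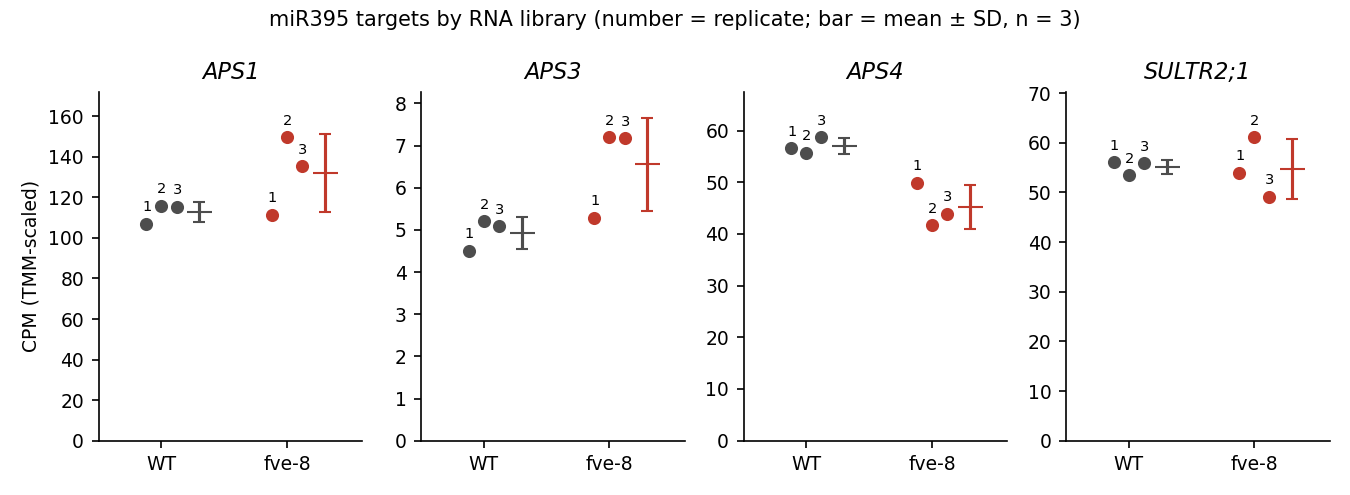
TMM-scaled CPM of the 4 miR395 targets in each RNA library, with WT in grey, fve-8 in red, the replicate number beside each point and mean ± SD (n = 3) at the right of each group. APS4 lies at 55.7 to 58.7 CPM in WT and at 41.7 to 49.9 CPM in fve-8, APS3 lies higher in fve-8, and APS1 and SULTR2;1 overlap.

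Within a library, ratios between genes do not depend on scaling, and by this measure APS4 took a smaller part of the ATP sulfurylase counts in every fve-8 library than in any WT library. APS4 held 28.6%, 26.9% and 27.7% of the counts of the 4 ATP sulfurylase genes in WT replicates 1 to 3, and 25.0%, 17.8% and 19.9% in fve-8. The fve-8 libraries were all below the WT ones, with fve-8 replicate 1 nearest to WT. Counts here are not divided by gene length, so the shares compare libraries and not genes. The mean share of APS4 went from 27.7% ± 0.824 to 20.9% ± 3.67 (SD, n = 3). APS1 went the other way, from 54.8% ± 1.01 to 60.4% ± 4.15, and overlapped between genotypes. The share of APS2, which lacks the miR395 link, was 15.0% ± 0.377 and 15.7% ± 0.763, and that of APS3 2.40% ± 0.120 and 2.99% ± 0.317.

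There were 1.89, 2.08 and 1.97 APS1 counts per APS4 count in the WT libraries, and 2.24, 3.58 and 3.08 in fve-8. All fve-8 ratios were above all WT ratios. SULTR2;1 counts per APS4 count went from 0.953 to 0.990 in WT to 1.08 to 1.46 in fve-8, while SULTR2;1 itself had a log2 fold change of -0.01. The APS4 share and both ratios contain the APS4 counts, so they are not separate observations of its lower level. The 4 ATP sulfurylase genes summed to 206 ± 6.81 CPM in WT and 218 ± 17.2 CPM in fve-8 (SD, n = 3), with fve-8 replicate 1 at 199.9 CPM inside the WT range of 198 to 211 CPM.

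**Figure D4:**
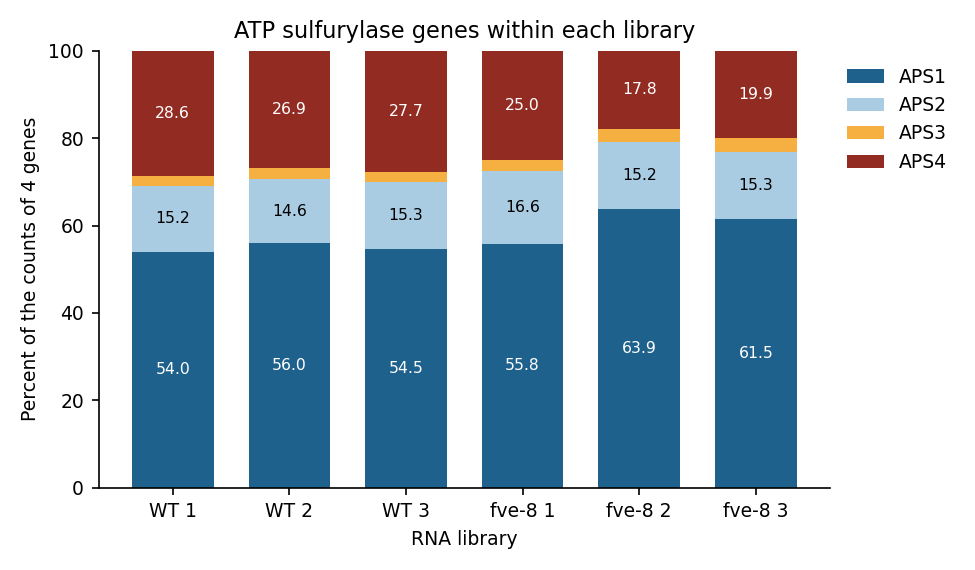
Share of the summed counts of APS1, APS2, APS3 and APS4 held by each gene in every RNA library, in percent. APS4 takes 26.9% to 28.6% in WT and 17.8% to 25.0% in fve-8, while APS2 stays between 14.6% and 16.6% in all 6 libraries.

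Around the targets, the steps of sulfate reduction were not called, while part of the sulfation branch rose. APS2 (AT1G19920) had a log2 fold change of 0.15 ± 0.09, and the APS reductase genes APR1 (AT4G04610), APR2 (AT1G62180) and APR3 (AT4G21990), which reduce the ATP sulfurylase product, had 0.02 ± 0.16, 0.17 ± 0.12 and 0.10 ± 0.10. The sulfite reductase gene SIR (AT5G04590), which makes sulfide, had -0.03 ± 0.12. Of these 5 genes edgeR and DESeq2 each called 0, and 0 had an unadjusted p under 0.05. With library totals 3 of them were called higher, where 5598 of all 19543 features were called higher and 192 lower.

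Of the 4 APS kinase genes, which make the sulfate donor used for glucosinolates and other sulfated compounds, 2 rose against a background of 6.60% higher. APK2 (AT4G39940) was read at 7.78, 10.1 and 7.76 CPM in WT and at 13.6, 15.0 and 17.7 CPM in fve-8. The groups did not overlap, and the log2 fold change was 0.85 ± 0.15 (SE, n = 3, edgeR adjusted p = 0.00902). Without WT replicate 1 its call was lost at a log2 fold change of 0.78. APK1 (AT2G14750) rose by 0.41 ± 0.12 (edgeR adjusted p = 0.0483), higher in 3 of 3 fve-8 libraries, but was not called with DESeq2 (adjusted p = 0.0739), with the replicate block (edgeR adjusted p = 0.0773) or without any 1 library other than fve-8 replicate 3. APK3 (AT3G03900) had 0.33 ± 0.19 and APK4 (AT5G67520) -0.08 ± 0.24, neither called.

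Of the 11 other sulfate transporter genes of the SULTR family 2 fell and none rose, against a background of 5.07% lower. With library totals 4 were called higher and 0 lower, where 5598 of all 19543 features were called higher and 192 lower. SULTR1;2 (AT1G78000), the main carrier for sulfate uptake by roots, went from 63.9, 68.6 and 67.0 CPM in WT to 49.3, 51.8 and 45.7 CPM in fve-8. All fve-8 libraries were below all WT libraries, with a log2 fold change of -0.44 ± 0.09 (SE, n = 3, edgeR adjusted p = 0.0180). The call was lost without WT replicate 1, 2 or 3 and with library totals (-0.10). SULTR3;4 (AT3G15990) fell by 0.66 ± 0.18 on the log2 scale (edgeR adjusted p = 0.0434), a call lost with library totals, DESeq2, the replicate block and without any 1 library other than fve-8 replicate 3. The other transporters were not called. Among them SULTR2;2 (AT1G77990), the vascular relative of SULTR2;1, had 0.27 ± 0.15, and SULTR1;1 (AT4G08620), the root carrier induced by sulfate shortage, had 0.15 ± 0.17. SULTR3;5 (AT5G19600), which works with SULTR2;1 in the root, had -0.08 ± 0.22, and the phloem gene SULTR1;3 (AT1G22150) had -0.33 ± 0.36. The vacuolar exporters SULTR4;1 (AT5G13550) and SULTR4;2 (AT3G12520) had 0.13 ± 0.13 and 0.20 ± 0.12. SULTR3;1 (AT3G51895), SULTR3;2 (AT4G02700) and SULTR3;3 (AT1G23090) had -0.13 ± 0.18, -0.11 ± 0.25 and 0.06 ± 0.10.

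**Figure D5:**
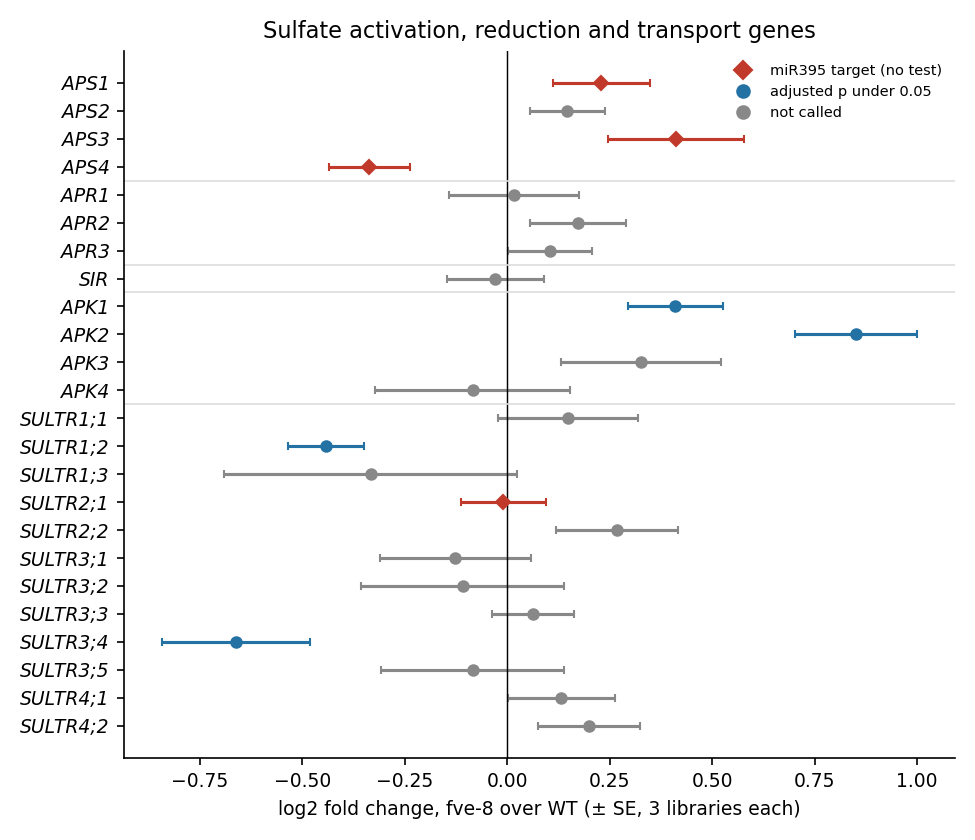
Log2 fold change (± SE, 3 libraries per genotype, TMM scaling) of the genes of sulfate activation, reduction, sulfation and transport, with the miR395 targets as red diamonds and called genes in blue. APK1 and APK2 lie above 0, SULTR1;2 and SULTR3;4 below, and the 4 targets lie on both sides of 0, from -0.34 to 0.41.

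Some markers of tissues that use these transporters were also called in the same libraries. The markers, like the gene lists, were chosen with earlier results of these data known. Their calls beside the background are therefore description only. The 3 root markers, CASP1, COBL9 and TIP2;3, fell, from a summed 55.4 to 59.1 CPM in WT to 29.7 to 33.6 CPM in fve-8, against 5.07% of all features called lower. The call of CASP1 was lost with library totals, and that of COBL9 with library totals, DESeq2, the replicate block and without any 1 library other than fve-8 replicate 3. Of 7 vascular markers 1 fell, or 14.3%, which for 7 genes is a single call beside the same background: the phloem sucrose carrier gene SUC2 (AT1G22710), with a log2 fold change of -0.53 ± 0.11 (edgeR adjusted p = 0.0190). Its call was lost with library totals and when any WT library or fve-8 replicate 2 was left out. With library totals 2 vascular markers were called higher and 0 lower, beside 5598 and 192 of all 19543 features. The sum of the vascular markers was 119 to 131 CPM in WT and 98.5 to 130 CPM in fve-8. Of 3 shoot markers 2 fell, the light-harvesting genes LHCB1.1 and LHCB1.4. The call of LHCB1.1 was lost with DESeq2-style size factors, library totals, the replicate block and without any 1 library other than fve-8 replicate 3, and that of LHCB1.4 without WT replicate 2. The sum over all 3 shoot markers, most of it from RBCS1A, which was not called, was 13779 to 14091 CPM in WT and 10225 to 12381 CPM in fve-8. The 4 seed markers (the storage protein genes CRA1 and CRC and the oil body genes OLEO1 and OLEO2) fell, from a summed 57.6 to 99.7 CPM in WT to 9.46 to 16.9 CPM in fve-8, and the call of CRC was lost without WT replicate 2. Every listed marker had counts in each of the 6 libraries. The part of these markers in the transporter values was not tested, and in whole seedlings fewer cells of a type and less RNA per cell cannot be told apart.

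Beside miR395, the list of the sulfur deficiency response, which includes the regulator SLIM1, showed 1 call among 9 tested of 10 listed genes. LSU4 (AT5G24655) was below the count filter. That is 11.1%, near the 11.7% of all features called. With library totals 3 were called higher, beside 5598 of all 19543 features. BGLU28 (AT2G44460), a beta-glucosidase gene linked to glucosinolate breakdown under sulfur shortage, rose from 1.48, 1.16 and 1.44 CPM to 2.27, 5.50 and 3.01 CPM (log2 fold change 1.42 ± 0.34, SE, n = 3, edgeR adjusted p = 0.0286), a call lost without WT replicate 1, 2 or 3 and without fve-8 replicate 2 (0.95). SLIM1 (AT1G73730) was read at 8.23, 6.23 and 6.94 CPM in WT and at 10.1, 8.76 and 7.49 CPM in fve-8, overlapping, with 0.30 ± 0.16 (edgeR adjusted p = 0.247). GGCT2;1 (AT5G26220), which breaks down gamma-glutamyl peptides, had 0.63 ± 0.29, and LSU3 (AT3G49570) and AT1G04770 had -0.33 ± 0.45 and -0.20 ± 0.21.

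Of 15 listed genes of cysteine and glutathione metabolism 1 rose and 1 fell, or 13.3% called beside 11.7% of all features. CYSC1 (AT3G61440), a mitochondrial enzyme gene of cyanide detoxification, went from a range of 252 to 285 CPM in WT to 337 to 368 CPM in fve-8 (0.38 ± 0.10, edgeR adjusted p = 0.0378). SERAT2;2 (AT3G13110), which makes the precursor O-acetylserine in mitochondria, went from a range of 46.8 to 49.7 CPM to 36.3 to 41.4 CPM (-0.35 ± 0.10, edgeR adjusted p = 0.0446). Neither pair of groups overlapped. Both calls were lost with the replicate block. That of CYSC1 was also lost when any WT library or fve-8 replicate 2 was left out, and that of SERAT2;2 with DESeq2, with library totals and without any 1 library other than fve-8 replicate 3. The uncalled members with the largest changes were DES1 (AT5G28030, 0.36 ± 0.16), CYSD2 (AT5G28020, 0.29 ± 0.13), OASA1 (AT4G14880, -0.23 ± 0.09) and SERAT3;1 (AT2G17640, 0.21 ± 0.18). Over all 44 tested genes of these sulfur lists, 4 rose and 3 fell, 15.9% against the 11.7% of all features. Their median log2 fold change was 0.08 against -0.01. DESeq2 called 4 of the 44, beside 10.5% of all features, and the replicate block 3, beside 6.29%.

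Genes that make, export or degrade miRNAs were measured in the same RNA libraries. Of 13 listed, 3 rose, or 23.1%, beside 6.60% of all features called higher. With library totals 7 were called higher, beside 5598 of all 19543 features. The 3 were HYL1 (AT1G09700), a partner of the Dicer that cuts miRNA precursors (0.72 ± 0.18, SE, n = 3), SDN3 (AT5G67240), a nuclease that trims mature miRNAs (0.89 ± 0.20), and TGH (AT5G23080), a processing factor (0.66 ± 0.16). Each was higher in 3 of 3 fve-8 libraries, with edgeR adjusted p of 0.0320, 0.0225 and 0.0269, and each call was lost when any WT library or fve-8 replicate 2 was left out. The call of HYL1 was also lost with the replicate block (edgeR adjusted p = 0.0668). The other 10 were not called, with the largest changes in SDN1 (AT3G50100, 0.56 ± 0.21) and SDN2 (AT5G05540, 0.50 ± 0.22), which act like SDN3, and in the processing factor DDL (AT3G20550, 0.31 ± 0.14) and the exporter HST (AT3G05040, -0.28 ± 0.10).

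The features nearest to each target across the 6 RNA libraries were also looked up. By root mean square difference of centred log2 CPM, the nearest of 19539 features to APS4 were AT4G32460 (0.015), AT5G35560 (0.023) and AT3G43240 (0.025). To APS1 they were AT5G58330 (0.034), CXIP2 (AT2G38270, 0.037) and PAO4 (AT1G65840, 0.040). APS3 had SK2 (AT4G39540, 0.052), AT4G14100 (0.054) and UGT87A2 (AT2G30140, 0.056), and SULTR2;1 had YLMG2 (AT5G21920, 0.020), AT3G16760 (0.028) and AT5G61970 (0.030). None of these 12 features is among the 44 tested genes of the sulfur lists. With so few such genes among 19539 features, nothing is read from this.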

How the data were processed

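RNA was sequenced in 3 libraries and small RNA in 2 libraries per genotype. The authors deposited 1 table per assay with whole-number read counts per feature, not normalized, beside their own log2 fold changes, which the deposited tables give per feature and which are printed only where named. Per the submitters' processing notes the tools were TopHat2, SAMtools, HTSeq and edgeR; the sources used here state no versions, build, strand setting or treatment of reads with several matches. Reads of near-identical copies or antisense partners may be miscounted. The 10 normalized per-library columns were not used. RNA libraries held 16161800 to 19599058 counts and small RNA libraries 376797 to 1280675. Chi-square per degree of freedom between replicates was 2.68 to 43.6 for RNA and 22.3 to 31.8 for small RNA, more than sampling noise, so no libraries were merged.

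The assays were fitted separately on genotype (edgeR 4.0.16, R 4.3.3: filterByExpr, TMM, quasi-likelihood test, Benjamini-Hochberg over all features, call at an adjusted p under 0.05). The SE is the log2 fold change over the root of F. The test was also run on simulated counts with the same spread per feature in both genotypes. That run does not cover the larger spread among the fve-8 RNA libraries. Alternatives were DESeq2 1.42.0, size factors, library totals, no filter, the replicate block and each library left out. Likeness used log2 CPM with a prior count of 2. Members, lists of 75 genes and markers were chosen with earlier results of these data known. Named were all members, all called listed genes, all genes of activation, reduction and transport, up to 4 others per list, precursor loci and nearest features. Symbols come from the RefSeq TAIR10.1 table, which holds 0 of the miRNA identifiers. No mature miRNA, protein or transcript sequence was used here.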

Additional observations from a re-analysis of the deposited data

How the results depend on the processing

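miR395a kept its direction under every alternative run, and its log2 fold change moved by less than the spread between replicates (3.72 to 4.14 when 1 library was left out). The targets moved by more than that spread only with library totals, to 0.57 for APS1, 0.75 for APS3, 0.00088 for APS4 and 0.34 for SULTR2;1, where the median feature stood at 0.33. Left-out libraries gave 0.13 to 0.34 for APS1, 0.33 to 0.54 for APS3, -0.42 to -0.28 for APS4 and -0.10 to 0.08 for SULTR2;1. RNA features called numbered 1290 higher and 990 lower. With library totals they were 5598 and 192, with the replicate block 768 and 461, and without 1 library 216 to 2444 and 128 to 1986, lowest without WT replicate 1 and highest without fve-8 replicate 3. Small RNA entries called numbered 21 higher and 6 lower, and without 1 library 9 to 35 and 0 to 4. Of the sulfur list genes, 4 were called higher and 3 lower, and 0 to 5 and 0 to 3 without 1 library. They were 19 and 0 with library totals, 2 and 1 with the replicate block, and 3 and 1 with DESeq2. Of all RNA features, 11.7% were called in the main fit, 29.6% with library totals, 6.29% with the replicate block and 10.5% with DESeq2. The cause of these shifts was not tested. The replicate numbers only name the libraries: same-numbered RNA libraries had correlations of -0.01, -0.06 and -0.15, and 0 of 6 libraries correlated best with their own number. Summing entries of 1 mature sequence was not run, since no sequence was used. Keeping 1 entry per set of equal counts, chosen after seeing the data, left 20 of 251 entries called. Small RNA depth limits entries below 2.37 to 8.04 CPM, the level of 3 counts.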
